A study of Caenorhabditis elegans with 4 samples.

Results

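The SMC-6 peaks described here are those on chromosome IV of Caenorhabditis elegans, chosen by their position alone: every peak of the series-wide list whose chromosome field reads IV. There are 565 of them among 3380 peaks on the 6 nuclear chromosomes (16.7%, 95% exact binomial interval 15.5 to 18.0%). The peaks on IV of the lists of ChIP replicate 1 (430 peaks) and ChIP replicate 2 (208 peaks) are set beside them. All libraries came from wild-type embryos of the laboratory strain N2, at mixed stages and of both sexes, grown at 20 degrees Celsius, with no mutation and no treatment. There were 2 SMC-6 ChIP libraries and 2 input libraries. No peak list of the input libraries was analysed here. The ChIP used an affinity-purified rabbit polyclonal antibody raised against SMC-6, and no library from animals without SMC-6 was analysed here.

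SMC-6 is a subunit of the SMC-5/6 complex, a ring-shaped relative of cohesin and condensin. The complex is known for its part in the repair of broken DNA by homologous recombination and in the handling of joined DNA molecules, and in C. elegans its loss makes animals sensitive to DNA damage and disturbs the germ line. C. elegans chromosomes have no single centromere. The autosomes have gene-rich centres with little meiotic recombination, and arms that recombine more and carry more repeats. Chromosome IV also carries most of the genes for 21U-RNAs, the piRNAs of the worm, in a pair of broad domains.

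In ChIP-seq, chromatin is cross-linked and sheared, the fragments that carry the protein are pulled out with an antibody and sequenced, and a peak is a stretch of the genome where such fragments pile up. Each peak has a first and last base on the WS220 build and a score from the authors' peak caller, on a scale that the lists do not explain. Scores of the series-wide list lie on another scale than those of the replicate lists, so they were never compared between them. Read numbers are not in the lists, so depth is unknown. No label states that the replicates were separate cultures, and the spread between them may be technical. No p-value was computed, because 2 libraries of 1 group leave no grouping of samples to test, and differences between chromosomes, between parts of IV and between the lists are given as untested values.

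SMC-6 peaks were found in all parts of IV and covered 1.20% of its bases in the series-wide list. With the chromosome divided into 3 parts of equal length, called left arm, centre and right arm here, the series-wide list had 200 peaks in the left arm (34.3 peaks per Mb), 182 in the centre (31.2) and 183 in the right arm (31.4). The density in the arms was 1.05 times that in the centre. Replicate 1 had 152, 123 and 155 peaks from left to right, and its arms had 1.25 times the density of the centre. Replicate 2 had 76, 76 and 56 peaks, and its arms had 0.87 times the density of the centre. The ratio of arms to centre thus averaged 1.06 ± 0.269 over the libraries (SD, n = 2), a spread that takes in 1, and the libraries differed in its direction. The left arm was the denser arm in replicate 2, while the arms of replicate 1 were nearly alike.

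At a finer scale the peaks were uneven. Among the 17 full windows of 1 Mb, the series-wide list held 11 to 55 peaks per window, with a median of 34.0. The fullest window ran from 4 to 5 Mb in the left arm, with 55 series-wide peaks, 39 replicate 1 peaks and 20 replicate 2 peaks. It was also the fullest window of replicate 1, while replicate 2 had its maximum of 23 peaks from 11 to 12 Mb, at the border of centre and right arm. The emptiest window of the series-wide list ran from 10 to 11 Mb in the centre, with 11 series-wide peaks, 11 replicate 1 peaks and 5 replicate 2 peaks. Replicate 1 was emptiest from 6 to 7 Mb, with 8 peaks. Across windows the peak numbers of the replicates had a Spearman's rho of 0.41 and a Pearson's r of 0.47 (n = 17 windows of 1 chromosome, a description only). The series-wide numbers followed those of replicate 2 more closely (rho 0.83) than those of replicate 1 (rho 0.47).

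**Figure D1:**
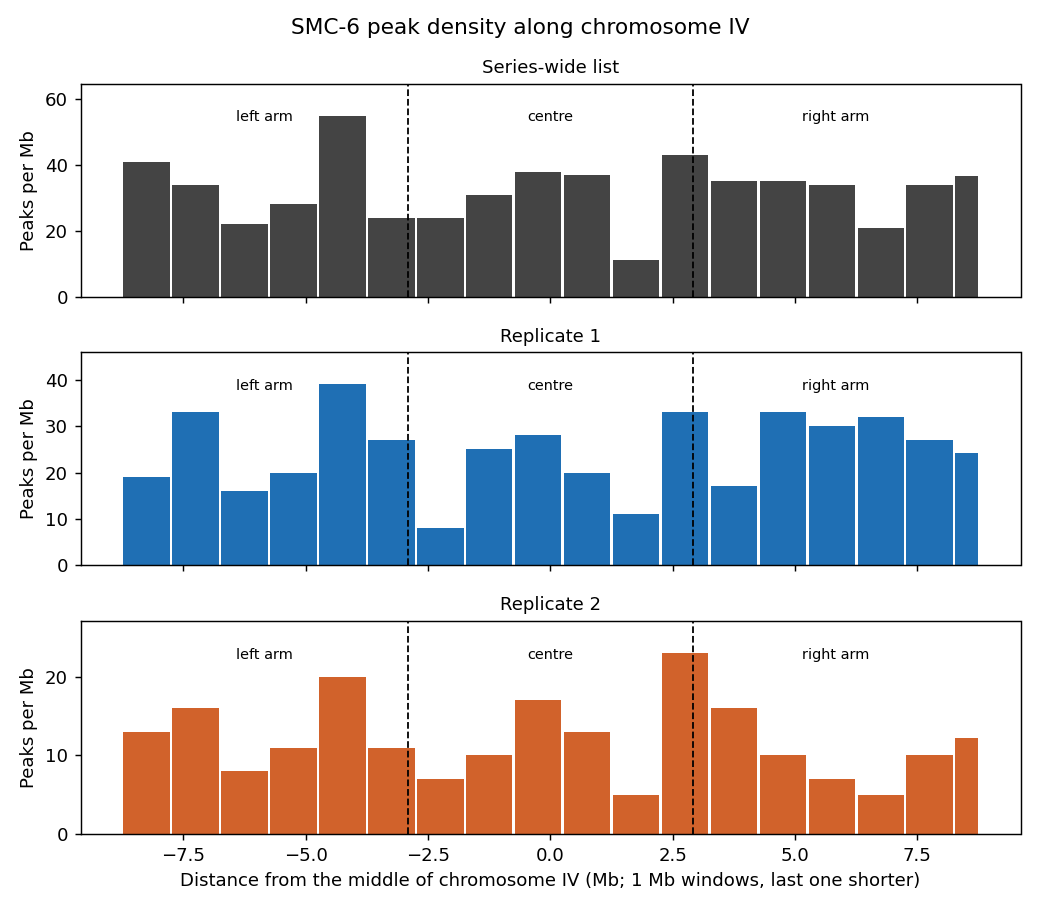
Peaks per Mb in windows of 1 Mb along chromosome IV, plotted by distance from its middle, in the series-wide list (top), ChIP replicate 1 (middle) and ChIP replicate 2 (bottom), with dashed lines at the borders of left arm, centre and right arm. The window from 4 to 5 Mb holds 55 series-wide peaks and the one from 10 to 11 Mb holds 11, and in the right arm replicate 1 stays high where replicate 2 falls to 5 peaks.

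The libraries parted most in the right arm. Replicate 1 had more peaks than replicate 2 in each of the 17 full windows, with a median ratio of 2.00. The ratio was 4.29 from 14 to 15 Mb (30 replicate 1 peaks and 7 replicate 2 peaks) and 6.40 from 15 to 16 Mb (32 and 5 peaks). The lowest ratio, 1.06, was also in the right arm, from 12 to 13 Mb (17 and 16 peaks). The right arm held 36.0% of the replicate 1 peaks on IV and 26.9% of the replicate 2 peaks. The part of the larger list size of replicate 1 in these ratios was not tested.

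The domains of 21U-RNA genes are known to lie roughly in the region around 5 to 7 Mb and in the right arm around 14 to 17 Mb. These windows were picked after the densities had been seen, from general knowledge of the chromosome and not from an annotation of this build. They were rounded inwards to whole Mb, so edges of the domains may lie in windows counted as others. The others include the neighbouring window from 4 to 5 Mb, the fullest, with 55 series-wide, 39 replicate 1 and 20 replicate 2 peaks. The part of this choice in the contrasts below was not tested. The 5 windows in them held 137 series-wide peaks (27.4 per Mb), and the other 12 full windows held 410 (34.2 per Mb). Replicate 2 had 8.00 peaks per Mb in these windows and 13.5 in the others. Replicate 1 had 24.8 peaks per Mb in them and 24.5 in the others, so the lower number was seen in replicate 2 and the series-wide list, and not in replicate 1. The left windows had fewer peaks in every list than the other full windows had (24.0 per Mb series-wide, 17.5 in replicate 1 and 9.00 in replicate 2). In replicate 1 this rested on the window from 6 to 7 Mb, with 8 peaks, since the window from 5 to 6 Mb had 27. The right windows had 29.7, 29.7 and 7.33 peaks per Mb in the same order of lists. Whether any peak lies on a 21U-RNA gene was not examined.

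Of the 565 peaks, 88 were overlapped by at least 1 bp by a peak in both replicate lists (15.6%, 12.7 to 18.8%), where 16.9% of all nuclear series-wide peaks were. Another 187 were overlapped by replicate 1 only (33.1%, 29.2 to 37.1%), where 23.3% of all nuclear peaks were. Replicate 2 only overlapped 116 (20.5%, 17.3 to 24.1%), where the share over all nuclear peaks was 23.8%. The remaining 174 had no partner in either list (30.8%, 27.0 to 34.8%), where the share over all nuclear peaks was 36.0%. The share called in both libraries was close to the background. The share with replicate 1 only was 33.1% on IV against 21.3% over the other 5 nuclear chromosomes together, and each of these 5 lay between 16.1% on III and 27.4% on II. Replicate 1 was also denser on IV (24.6 peaks per Mb) than on the others (17.8 to 22.1). Replicate 2 had 11.9 peaks per Mb on IV, near the low end of the others (11.4 to 19.7). The part of these densities in the shares was not tested. The intervals given cover counting error only, take peaks as independent, and rest on 2 libraries. The series-wide list may have been called on reads of the same libraries, so this support is not independent of it.

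The support from replicate 1 alone was concentrated towards the right. In the right arm 80 of 183 peaks had replicate 1 only (43.7%, 36.4 to 51.2%), in the left arm 59 of 200 (29.5%, 23.3 to 36.3%), and in the centre 48 of 182 (26.4%, 20.1 to 33.4%). The right arm had the lowest share called in both libraries, 11.5% (7.25 to 17.0%). That share was 15.5% (10.8 to 21.3%) in the left arm and 19.8% (14.3 to 26.3%) in the centre, with intervals that overlap. The share called in neither library was nearly level, between 29.5% in the right arm and 31.9% in the centre.

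**Figure D2:**
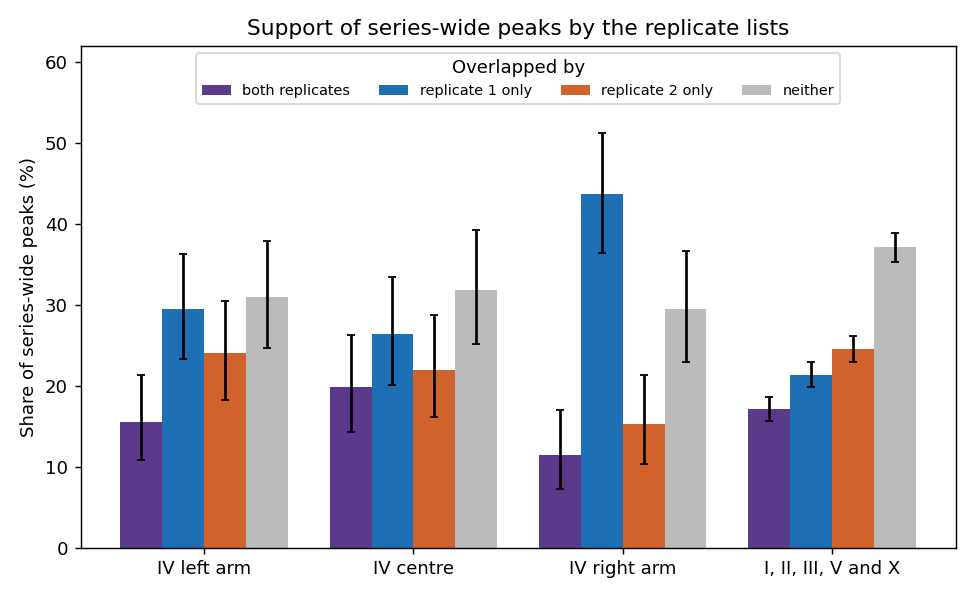
Share of series-wide peaks overlapped by both replicate lists, by 1 of them or by neither, in the left arm, centre and right arm of chromosome IV and over the other 5 nuclear chromosomes, with bars for exact 95% binomial intervals. Replicate 1 only reaches 43.7% in the right arm of IV and 21.3% over the other chromosomes, while the shares called in both lie between 11.5 and 19.8%.

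Taken from the side of the replicates, 94 of the 430 replicate 1 peaks on IV were overlapped by a replicate 2 peak (21.9%, 18.0 to 26.1%), against 28.5% of all nuclear replicate 1 peaks. On the other 5 chromosomes that share ran from 26.1 to 35.1%, so IV had the lowest. The part of the unequal list sizes on IV in this share was not tested. In the other direction 86 of the 208 replicate 2 peaks were overlapped by replicate 1 (41.3%, 34.6 to 48.4%), against 38.8% of all nuclear replicate 2 peaks. The centre was the most alike: 35.8% (27.3 to 44.9%) of replicate 1 peaks and 51.3% (39.6 to 63.0%) of replicate 2 peaks there had a partner. In the right arm these shares were 12.9% (8.06 to 19.2%) and 33.9% (21.8 to 47.8%). The series-wide list held 274 of the replicate 1 peaks on IV (63.7%, with 65.0% over all nuclear chromosomes) and 191 of the replicate 2 peaks (91.8%, with 92.9% over all).

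Most peaks on IV were narrow. The median width was 263 bp series-wide (quartiles 190 and 380 bp), 304 bp in replicate 1 (190 and 524 bp) and 428 bp in replicate 2 (243 and 618 bp). The replicate medians averaged 366 ± 87.7 bp (SD, n = 2). On the other 5 chromosomes the series-wide median ran from 259 to 278 bp. The narrowest series-wide peak was 146 bp on IV and on each of the others, where the lists on IV went down to 62 bp in replicate 1 and 132 bp in replicate 2. The part of this lower limit in the widths was not tested. Peaks of 1 kb or more numbered 24 on IV (4.25% of its peaks, with 4.50% over all nuclear chromosomes). The centre held 15 of them, the right arm 6 and the left arm 3. In each library too the centre held the most, 21 of 38 such peaks in replicate 1 and 16 of 24 in replicate 2. Of the 15 series-wide peaks in the centre, 11 are the peaks of similar width described below, which lay in groups. Another 2 are neighbours in the region from 8572571 to 8581739. Neighbouring peaks are counted separately here, so these counts rest on fewer places than peaks. Of the 24 series-wide peaks, both libraries called 17 (70.8%, 48.9 to 87.4%), 14 of these in the centre, and none of the 24 lacked a partner in both libraries. A wider peak meets the 1 bp rule more easily, so width and support are not separate here.

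The median score on IV lay below those of the other chromosomes in the series-wide list and, by little, in replicate 2, and not in replicate 1. The series-wide median was 5.93 (quartiles 4.07 and 11.2), and the medians of the other 5 ran from 6.98 to 7.33. Its upper quartile, 11.2, also lay below those of the other 5, which ran from 12.1 to 14.0. The replicate 2 median on IV was 134, with 136 to 181 on the others, and the replicate 1 median was 100, with 79.6 to 102 on the others. The quartiles of replicate 2 on IV, 80.1 and 474, lay within the ranges of the others (73.3 to 94.5 and 289 to 488). The right arm had a median score of 5.64, the left arm 5.91 and the centre 6.45. The peaks with replicate 1 only had a median score of 5.22 (quartiles 3.69 and 7.10), and those with replicate 2 only had 11.7 (6.40 and 23.6). Peaks called in both had 18.7 (8.21 and 39.9) and those called in neither 4.57 (3.38 and 6.29). IV had the largest share of peaks with replicate 1 only among the 6 chromosomes, and the part of that share in its low series-wide median was not tested.

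Higher-scoring peaks were more often shared. In 5 groups of 113 peaks by series-wide score, both libraries had called 48.7% (39.2 to 58.3%) of the highest group, with scores of 13.7 and above, and 0.885% (0.0224 to 4.83%) of the lowest, with scores of 3.75 and below. Only 3 of the 113 highest-scoring peaks were in neither replicate list (2.65%, 0.551 to 7.56%), against 56 of the 113 lowest-scoring (49.6%, 40.0 to 59.1%). The highest group was also wider, with a median of 411 bp against 199 bp. Within lists, width and score were correlated across peaks, with a Spearman's rho of 0.49 series-wide, 0.74 in replicate 1 and 0.78 in replicate 2 (n = 565, 430 and 208 peaks, a description only, since both values come from the same reads).

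**Figure D3:**
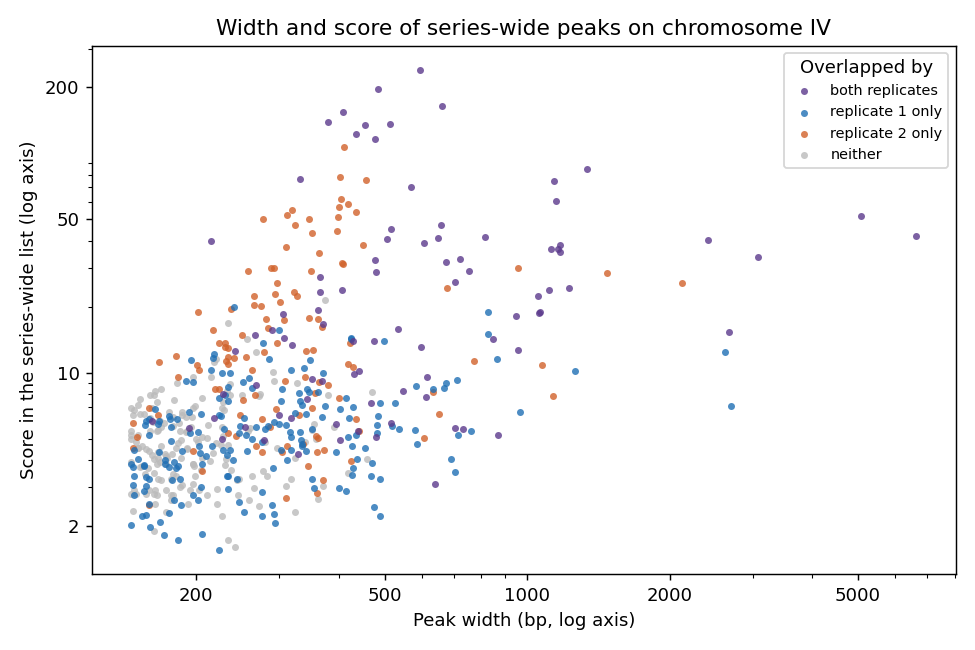
Width (bp) and score of each series-wide peak on chromosome IV, both on log axes, coloured by which replicate lists overlapped it. Peaks called in neither library lie low and narrow, with medians of 4.57 in score and 190 bp in width, the 10 highest scores belong to peaks of 379 to 662 bp, and peaks of 5 kb or more score 41.8 and 52.0.

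The highest-scoring sites on IV were sharp peaks of 379 to 662 bp, spread over all 3 parts. The first lay in the left arm at 390199 to 390793, with a score of 240. Replicate 2 called it as a 757 bp peak with its highest score on IV, 3084, while replicate 1 called a 423 bp peak there that scored 632 and ranked 39. The second was the highest of the centre, at 6756376 to 6756860 (score 196, with 419 in replicate 1 and 1922 in replicate 2). The highest of the right arm, at 16946714 to 16947092, scored 139 and ranked 5 on the chromosome, with replicate scores of 143 and 1330. At 1595574 to 1596235 (score 165), replicate 2 had a 790 bp peak scoring 1818 and replicate 1 only a 185 bp peak scoring 110. A neighbour at 1659052 to 1659459 scored 154, and the others of the 10 lay at 13386003 to 13386515 (136), 9315940 to 9316394 (134), 11310551 to 11310986 (122), 7039396 to 7039873 (116) and 16863437 to 16863847 (107). Both libraries called 9 of the 10. The last had no replicate 1 peak, though replicate 2 scored it 1248.

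The libraries ranked these 10 sites differently. They stood at ranks 1 to 19 of the 208 replicate 2 peaks on IV, with a median score of 1434, and the 9 found in replicate 1 stood at ranks 39 to 247 of 430, with a median score of 246. In replicate 2 their borders lay within 70 to 144 bp of the series-wide borders, taking the larger of the left and right differences, and in replicate 1 within 15 to 318 bp. The 9 sites called in both libraries thus overlapped, with borders less close at some sites in replicate 1, and ranked lower in replicate 1. For example, replicate 1 had a 187 bp peak at the 436 bp site from 11310551 to 11310986, and 2 peaks at 7039396 to 7039873.

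The 10 widest series-wide peaks shared no member with the 10 highest-scoring and lay between ranks 11 and 230 by score. In replicate 1 their partners included its top scores, with a median of 3032 over the 8 that had a partner, and in replicate 2 the median was 1470 over 8. The widest, 6638 bp at 8575102 to 8581739 in the centre, scored 41.8, and its 2415 bp neighbour at 8572571 to 8574985 scored 40.1. A 5066 bp peak at 11070833 to 11075898 scored 52.0. The peak at 12316256 to 12319334 was the most alike between lists: 3079 bp in the series-wide list, 3066 bp in replicate 1 with the tied top score of 3100, and 3131 bp in replicate 2 with a score of 2199, rank 3 of that list on IV. A 1338 bp peak at 14033115 to 14034452 scored 85.1, the most among these 10, and was 1550 bp (score 1135) in replicate 1 and 2037 bp (score 1281) in replicate 2. The peak at 3206357 to 3209032 was 2676 bp wide, with 2165 bp and a score of 285 in replicate 1, and 3266 bp and 1342 in replicate 2.

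Some wide and high peaks belonged to 1 library. The peak at 14212798 to 14215420 (2623 bp, score 12.4) lay under a replicate 1 peak of 4742 bp, the widest of that list on IV, which held the top score of 3100, and no replicate 2 peak was called there. The same held at 688845 to 691538 (2694 bp, score 7.08), where replicate 1 had a 4724 bp peak scoring 2953 and replicate 2 had none. On the other side, the peaks at 2828480 to 2830602 (2123 bp, score 25.7) and 13360520 to 13361991 (1472 bp, score 28.6) had replicate 2 scores of 2597 and 1599, ranks 2 and 7 of that list, and no replicate 1 peak. Among peaks without a partner in the other library, picked after their values were seen, replicate 1 had a row of 3 at 4921537 to 4922458 (score 1421), 4923792 to 4924727 (score 1406) and 4926064 to 4927010 (score 1169), and replicate 2 had a 2969 bp peak at 9045771 to 9048739 (score 1390). Absence from a list means only that no peak was called and does not show an unbound site, and input signal at these sites was not analysed here.

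Of the top 5 scores of replicate 1 on IV, all tied at 3100, 2 lay in the 8575102 to 8581739 peak, and the others were at 11070914 to 11072789, 12316307 to 12319372 and 14210731 to 14215472. The highest replicate 1 score was 3100 on I, III and V too, with 3152 on II and 3106 on X. Whether the caller limits scores near this value was not examined, so ranks and correlations that include it may be affected. The top 5 of replicate 2 were 390155 to 390911, 2828452 to 2830633 (score 2597), 12316273 to 12319403 (score 2199), 6756340 to 6756946 and 1595571 to 1596360. The lists of 5 met at the region from 12316256 to 12319334 alone. Over 85 pairs of peaks that were each other's best overlap on IV, replicate scores had a Spearman's rho of 0.55 and a Pearson's r of 0.43, and widths had a rho of 0.81 (a description across peaks). The replicate 2 peak was the wider in 58 of the 85 pairs (68.2%), with medians of 435 bp in replicate 1 and 607 bp in replicate 2. The middles of paired peaks lay a median of 29.0 bp apart.

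A set of peaks in the centre had nearly the same width. It was noticed in the widths and then counted, and so carries no test. Both libraries called 11 centre peaks of 1 to 1.25 kb, at 1055 to 1226 bp in the series-wide list (median 1138 bp), 1123 to 1299 bp in replicate 1 and 934 to 1352 bp in replicate 2. They lay in groups. A pair stood at 7485813 to 7486927 and 7487608 to 7488665, with 680 bp between them. A group of 3 lay at 8330950 to 8332004, 8333621 to 8334846 and 8335295 to 8336359. The remaining 6 lay within 11324024 to 11407461, as a pair at 11324024 to 11325188 and 11325905 to 11327042 (716 bp apart), a pair at 11337720 to 11338869 and 11339577 to 11340747 (707 bp apart), and a pair at 11400293 to 11401467 and 11406336 to 11407461 (4868 bp apart). These 6 scored higher than the other 5: 35.5 to 74.5 in the series-wide list against 18.8 to 24.4, 1188 to 2136 in replicate 1 against 753 to 1101, and 773 to 1269 in replicate 2 against 302 to 710. Each of the 11 had another of the set within 10 kb.

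Peaks of this width were not found on IV alone. Chromosome IV had 13 series-wide peaks of 1 to 1.25 kb, of which both libraries called the 11 above, and V had 17 such peaks, all called in both libraries, 13 of them within 10 kb of another. Chromosome I had 11 with none called in both, II 5 with 3 in both, III 3 with 1 and X 8 with 2. No annotation of the WS220 build was used here, so the genes under these peaks are not named, and whether their sequences are copies of each other was not examined.

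**Figure D4:**
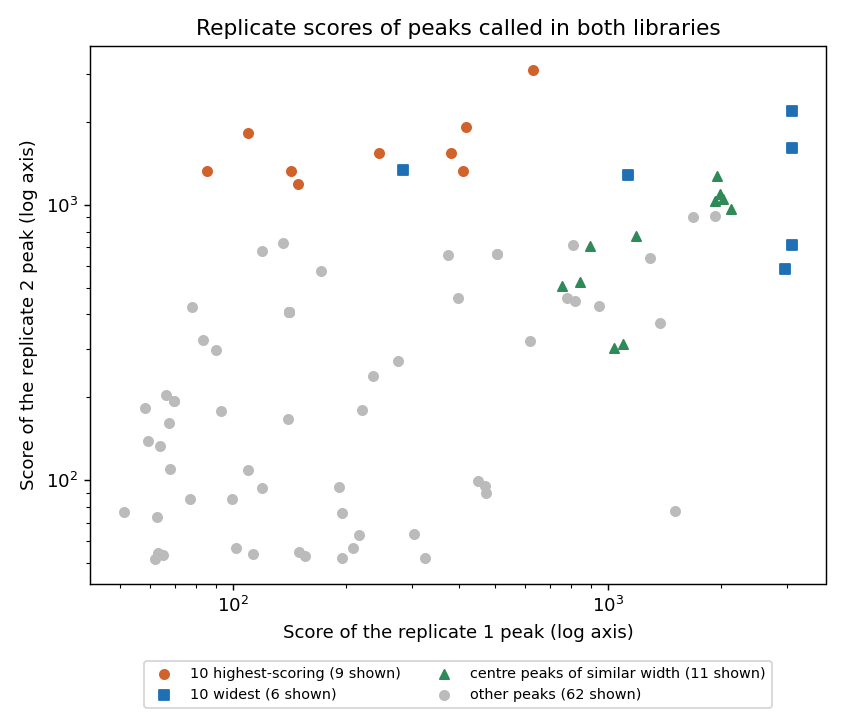
Score of the replicate 1 peak (horizontal) and of the replicate 2 peak (vertical) at the 88 series-wide peaks on chromosome IV called in both libraries, on log axes. The 9 of the 10 highest-scoring sites called in both lie at the top left to middle, with replicate 1 scores of 85.4 to 632, the widest peaks reach the tied replicate 1 score of 3100, and the 11 centre peaks of 1 to 1.25 kb lie at 753 to 2136 in replicate 1 and 302 to 1269 in replicate 2.

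Neighbouring peaks on IV were often very close. The median gap was 13889 bp series-wide, 16284 bp in replicate 1 and 55533 bp in replicate 2. Gaps under 1 kb made up 131 of 564 gaps in the series-wide list (23.2%), 125 of 429 in replicate 1 (29.1%) and 24 of 207 in replicate 2 (11.6%), with a mean of 20.4 ± 12.4% over the libraries (SD, n = 2). The series-wide share on IV lay above those of the other 5 chromosomes, which ran from 16.3 to 18.9%. In replicate 1 the share on IV (29.1%) was below the highest of the others (29.8%), and in replicate 2 IV (11.6%) lay within the others' range of 10.0 to 16.5%, so neither replicate list placed IV at the top. The smallest gap was 43 bp in the series-wide list, where no chromosome had one below 43 bp, and 2 and 3 bp in the lists of replicate 1 and replicate 2.

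Joining peaks less than 1 kb apart left 434 regions, 345 of them a lone peak and 89 of 2 or more. The 89 held 220 of the 565 peaks (38.9%, with 30.9% over all nuclear chromosomes and 27.4 to 32.3% on the other 5). By the same joining the share on IV was 47.0% in replicate 1, with 29.9 to 45.7% on the others, and 19.2% in replicate 2, within the others' 15.7 to 27.7%. Of these regions 66 had 2 peaks, 14 had 3 and 9 had 4 or more, and their median span was 1079 bp. The centre held 34, the right arm 31 and the left arm 24. Both libraries had a peak in 28 of the 89 (31.5%, 22.0 to 42.2%), against 48 of the 345 lone peaks (13.9%, 10.4 to 18.0%), and neither had one in 5 of the 89 (5.62%, 1.85 to 12.6%), against 143 of the 345 (41.4%, 36.2 to 46.8%). A longer region is easier to overlap. In 24 of the 89 regions a replicate 1 peak ran across 2 or more of the series-wide peaks, and in 13 a replicate 2 peak did. The division also went the other way, since 32 series-wide peaks on IV held 2 or more replicate 1 peaks and 7 held 2 or more replicate 2 peaks.

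The region divided most lay in the left arm, from 688845 to 698249. It spanned 9405 bp in 9 series-wide peaks of 262 to 2694 bp, with gaps of 88 to 380 bp. Their scores of 3.51 to 8.46 lay on both sides of the series-wide median on IV, 5.93. Replicate 1 had 6 peaks there, set almost end to end over 9286 bases, with gaps of 4 to 146 bp and scores of 72.2 to 2953. Replicate 2 had none. This region belonged to the longest run of series-wide peaks with gaps under 10 kb on IV, 13 peaks from 682867 to 706622, in which replicate 1 had 7 peaks and replicate 2 had 1.

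The 9169 bp region in the centre, from 8572571 to 8581739, was the opposite case. The series-wide list divided it into 2 peaks with a gap of 116 bp, replicate 1 into 6 and replicate 2 into 5, and peaks filled 98.7% of it in the series-wide list. Replicate 1 scores there were 2963, 1926, 191, 3100, 3100 and 148 from left to right, and replicate 2 scores 584, 562, 352, 1201 and 1614. The widest peak of each library lay towards its right end, from 8578190 to 8581692 in replicate 1 and from 8578211 to 8581948 in replicate 2, with a top score of the region in each. At 2 places the calls of the libraries broke nearly alike, between bases 8574136 and 8574220 and between 8578128 and 8578190 in replicate 1, and between 8574138 and 8574217 and between 8578113 and 8578211 in replicate 2. At another place the match was looser. Replicate 2 had no peak between 8574975 and 8575332, and replicate 1 broke there on both sides of a peak from 8575065 to 8575291. The series-wide break, between 8574985 and 8575102, fell there too. Other breaks had no counterpart. The one between 8575957 and 8575997 in replicate 2 fell inside a replicate 1 peak. The one between 8581692 and 8581699 in replicate 1 fell inside a replicate 2 peak.

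Some of the other regions were divided in 1 list and lay mostly or wholly under 1 peak in another. At 4416465 to 4421875 in the left arm, there were 7 series-wide peaks with scores of 3.11 to 11.3. Of these, 6 lay under a replicate 2 peak of 5151 bp, the widest of that list on IV (score 408). The last, at 4421690 to 4421875, lay beyond its right end and had no partner in either list. Replicate 1 had a 2636 bp peak in the region (score 141). At 11070833 to 11075898 the series-wide list and replicate 2 (5097 bp, score 714) had 1 peak each, and replicate 1 had 4, with scores falling from left to right except at the last: 3100, 418, 80.9 and 120. At 14210831 to 14215420 replicate 1 had 1 peak where the series-wide list had 3, with scores of 7.27, 10.2 and 12.4. The remaining regions of most peaks were each found mainly by 1 library. Replicate 1 had 3 peaks (highest score 645) and replicate 2 none at 7592192 to 7595369, with 5 series-wide peaks. Replicate 2 had 2 (highest score 746) and replicate 1 none at 6357867 to 6360953, also with 5. At 12730434 to 12733665, replicate 2 had 6 peaks of near-equal score (70.6 to 119) and replicate 1 a lone 118 bp peak at the right edge (score 51.9).

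Long stretches of IV had no peak. In the series-wide list the longest ran from 10380926 to 10658266 in the centre (277341 bp), with 2 replicate 1 peaks and 1 replicate 2 peak inside it. The others of the 5 longest were 1981297 to 2213826 (232530 bp), 14838463 to 15028864 (190402 bp), 6117995 to 6294134 (176140 bp) and 10003639 to 10175020 (171382 bp). The stretches of 190402 and 171382 bp were free of peaks in all 3 lists. The longest gap of replicate 1 ran from 9877346 to 10262307 (384962 bp), and that of replicate 2 from 9856848 to 10658182 (801335 bp), so both lists had their longest gap in the same part of the centre. The next 3 gaps of replicate 2 all lay in the right arm, from 14794351 to 15409305, 14034587 to 14620608 and 15931524 to 16398155, and held 12, 23 and 14 replicate 1 peaks.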

How the data were processed

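SMC-6 ChIP-seq peak lists of 2 ChIP libraries and of the whole series were used. Groups and replicate numbers came from the sample titles. The submitters' processing notes name BWA and ce10, without a version of BWA. Peaks were called with MACS for the replicate lists and MACS v2 for the series-wide list, per the files' own source field, on WormBase WS220, per the file headers. How libraries and inputs were joined is not given here. Per peak, the deposited value is the authors' score, and start and end are used as deposited, 1-based.

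From these, counts, densities, widths, gaps and overlaps of at least 1 bp were computed (Python 3.11.15, NumPy 2.4.6, SciPy 1.17.1), after a check of the code on simulated lists. The last listed base, 17493824, stood for the length of IV. Peaks were placed by their middle. Intervals are exact (Clopper-Pearson), at 95%, and cover counting error only. The members and lists were chosen with earlier results of these data known. Named regions were the 10 highest-scoring and 10 widest peaks, the highest of each part, the 5 widest joined regions and the 5 of most peaks, the 5 longest gaps, the fullest and emptiest windows, and in each replicate list the top 5 by score and 3 by width. Alternatives were other borders, the upper 50% by score, stricter overlap, other joining gaps, covered bases, and each replicate list alone. Base composition and sequence were not examined, because no genome of this build was used here.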

Additional observations from a re-analysis of the deposited data

How the results depend on the processing

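Of 44 alternative values for chromosome IV, 31 stayed within the spread of the replicate lists, the interval of the share or 1.5 times the count, and 13 did not. That spread comes from 2 libraries and is widest where they differ most, so it does not show stability. Some of the alternatives were the replicate lists themselves, which set that spread, so the count of values within it is not an independent check. The arm to centre ratio was 0.87 to 1.25 with 1 replicate list alone, 0.95 with narrower arms and a wider centre, 0.88 in the upper 50% by score, 1.16 with joined peaks and 0.83 by covered bases, so it stood on both sides of 1. Moving the borders to the nearest 500 kb (6 and 11.5 Mb) gave 1.11, with 1.23 in replicate 1 and 0.99 in replicate 2, and covered bases without the 5 widest regions gave 0.89. These last alternatives were chosen after the data were seen. With 1 replicate list alone the share of peaks on IV was 14.6 to 20.8%, median width 304 to 428 bp, median gap 16284 to 55533 bp, gaps under 1 kb 11.6 to 29.1%, regions of 2 or more peaks 16 to 77, and the rank correlation of width and score 0.74 to 0.78. The share of series-wide peaks overlapped was 36.1 to 48.7% with 1 replicate list, against 15.6% in both, since the rule then asks for less. An overlap of 50% of both peaks gave 11.2% in both lists, 15.8% of replicate 1 peaks and 32.7% of replicate 2 peaks. In the upper 50% by score, the share in both was 26.2%, gaps under 1 kb 10.3% and the median gap 43203 bp, which follows in part from having fewer peaks. The share of peaks on IV was 13.8% in the upper 50% by score, below the interval of 15.5 to 18.0% for all scores. The cause of the other shifts was not tested. No paired analysis was possible because no result came from a test. Depth is unknown from the lists, so differences in peak number and width between libraries cannot be set against it.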

Other observations

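A peak at the first base was called in every list, at 1 to 227 in the series-wide list (score 5.00), 1 to 235 in replicate 1 (score 619) and 1 to 232 in replicate 2 (score 321). The last series-wide peak, at 17493451 to 17493824, scored 21.5, the highest score of any peak on IV that neither replicate list overlapped. Replicate 2 had its last peak at 17492656 to 17492955 (score 175), and replicate 1 ended earlier, at 17391344 to 17391906 (score 151). Input signal at these peaks was not analysed here. The length of IV was set by the last base of the last series-wide peak, and the true end of the WS220 sequence was not checked, so the distance of these peaks from it is not known.

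The series-wide list left out 156 replicate 1 peaks on IV and 17 replicate 2 peaks. The left-out replicate 1 peaks scored up to 316 (3940294 to 3941125, 832 bp) and 312 (15060047 to 15060852, 806 bp), ranks 68 and 69 of 430, and those of replicate 2 up to 110 (9764721 to 9764963, 243 bp), rank 120 of 208. Of each set, 2 peaks overlapped a peak of the other replicate. These peaks were picked after their values were seen.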
